A study of Mus musculus with 6 samples.

Results

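Collagen genes were described as the 43 entries, of 23358 in the deposited gene table, whose symbol has the form of a collagen alpha chain (Col, a type number, a and a chain number). They encode chains of 26 collagen types. The tissue was calvaria, flat bone of the skull roof, from mice aged 2 to 3 days, profiled by RNA-seq in 6 libraries. Of these, 3 were labelled as a conditional knockout of Ezh2 (cKO, genotype name Ezh2_cKO-Osx) and 3 as wild type (WT, genotype name Ezh2_WT_Osx). Ezh2 is the catalytic subunit of Polycomb repressive complex 2, which methylates histone H3, and Osx (osterix) is the protein of the gene Sp7, which commits precursors to the osteoblast lineage. In both groups the bones spent 20 minutes in collagenase type II (2 mg/ml) and trypsin (0.005%) before freezing, so the RNA comes from digested bone with all the cells it still held. The name Osx stands in the genotype of both groups. The labels do not give the driver of the deletion, the deleted part of Ezh2 or whether each library is a separate animal. The p-values therefore refer to the variation among these 6 libraries, which may include technical variation.

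Collagens are proteins of 3 chains wound into a triple helix and secreted into the extracellular matrix. Fibrillar collagens assemble into the fibrils that give bone, tendon, skin and cartilage their tensile strength, and bone matrix is built mainly on type I collagen. Other collagens form the sheets of basement membranes, beaded filaments around cells, coats on the surface of fibrils (the fibril-associated, or FACIT, collagens) or transmembrane proteins.

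Gene counts summed to between 60449016 and 95439578 per library, of which 6.10% to 12.0% fell on the ribosomal RNA precursor Rn45s. Levels are given as CPM, counts relative to a TMM-scaled library size, for comparisons of 1 gene between libraries, and as the deposited RPKM, a value per gene length, for comparisons between genes. Wherever 6 values are listed they stand in the order WT 14, WT 27, WT 29, then cKO 8, cKO 10, cKO 37, where the numbers are those of the labels. Fold changes are log2 values of cKO over WT with a standard error (n = 3 libraries per group), and a gene passed the test at an edgeR quasi-likelihood adjusted p below 0.05. Ezh2 itself had 20.7, 21.7 and 20.4 CPM in WT and 19.2, 20.6 and 19.8 CPM in cKO (log2 difference -0.07 ± 0.07, adjusted p = 0.507). The 8 osteoblast markers read for the tissue label (among them Runx2, Alpl, Ibsp and Dmp1) were present in every library, with sums of 6899 to 9167 CPM. Another of them, Spp1, was the largest part of each sum, at 3922 to 5604 CPM. For Ezh2, whole-gene counts do not check the labels, so every direction here rests on them alone.

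Of the 43 collagen genes, 1 rose in cKO (Col23a1), 3 fell (Col4a6, Col6a5 and Col14a1) and 39 did not pass. The share that passed was 9.30%, against 12.4% of all 16089 tested genes, of which 5.96% were higher and 6.45% lower in cKO. With upper-quartile scaling the genome-wide split moved from 959 higher and 1038 lower to 1191 higher and 764 lower, while the collagen counts stayed at 1 and 3. At an unadjusted p below 0.05 there were 8 collagen genes (18.6%, against 29.1% of tested genes), the 4 that passed together with Col1a1, Col4a4, Col7a1 and Col25a1. All 3 WT libraries lay below all 3 cKO libraries for 4 collagen genes (9.30%, against 17.2% of tested genes) and above them for 5 (11.6%, against 17.4%). Each of these shares was below that of all tested genes, apart from the 3 lower calls among 43, which make a share close to the background of 6.45%. Their median log2 difference was -0.07, beside 0.01 over all tested genes, and 27 of the 43 (62.8%, against 48.7% of all) had a negative value. Without cKO 37 the median turned to 0.08 with 17 negative values, and without both WT 14 and cKO 37 it was 0.03 with 20. In bulk RNA a lower value can come from fewer cells of a type or from less RNA per cell, and these cannot be told apart.

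**Figure D1:**
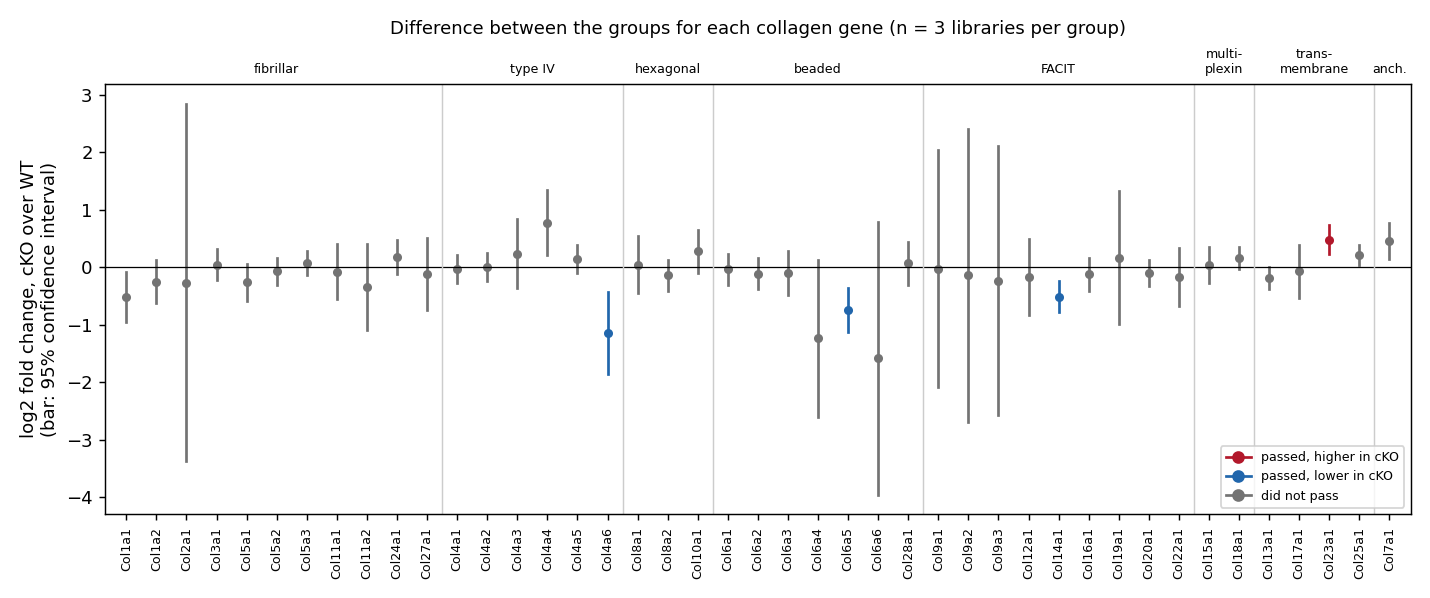
Log2 fold change of cKO over WT (vertical axis) with its 95% confidence interval for each of the 43 collagen genes, grouped by structural class along the horizontal axis (n = 3 libraries per group). Red marks the gene that passed higher (Col23a1), blue the 3 that passed lower (Col4a6, Col6a5, Col14a1) and grey the rest. The widest intervals belong to Col2a1, Col6a6 and the type IX genes.

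Collagen transcripts made up 17.4%, 18.4% and 21.6% of all counts in WT and 17.5%, 17.0% and 13.6% in cKO, each with a 95% Wilson interval of at most 0.00947 percentage points to either side, which covers counting error only. The interval takes each count as an independent read. All deposited counts were even, so it may be too narrow even for that error. The groups overlapped, with cKO 8 above WT 14, and cKO 37 stood lowest. Type I collagen alone took 66.5% to 76.7% of the collagen counts of a library, and Col1a1, Col1a2 and Col3a1 together 74.5% to 82.4%. Without type I, the summed collagen level was 51016, 54407 and 52215 CPM in WT and 54577, 55531 and 37425 CPM in cKO. Here 5 of the 6 libraries lay close together and cKO 37 lay apart. cKO 37 was also the lowest library for 23 of the 43 genes, while WT 27 and cKO 10 were each the highest for 12.

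Per gene length, mean levels over the 6 libraries ran from 0.0144 RPKM for Col19a1 to 10956 RPKM for Col1a1. At least 100 RPKM was reached by 17 genes and at least 10 by 28, whereas 4 lay between 1 and 10 and 11 below 1. The order was led by Col1a1 (10956 RPKM), Col1a2 (8192 RPKM) and Col3a1 (1724 RPKM), followed by Col5a1, Col2a1, Col5a2 and Col6a1 between 429 and 499 RPKM. Those last 4 did not separate, since the values of Col2a1 alone ran from 51.3 to 903 RPKM. The 4 genes that passed the test had mean levels of 0.105 to 34.9 RPKM, and ranked 22, 31, 37 and 40 by level among the 43.

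**Figure D2:**
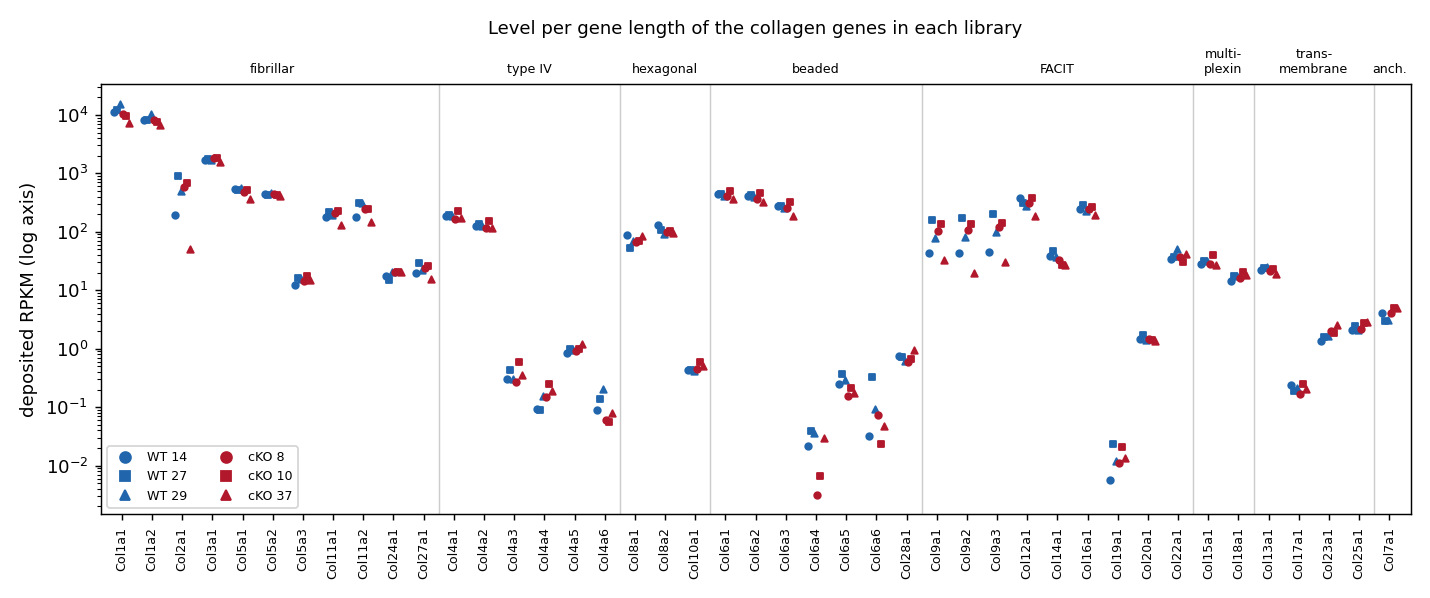
Deposited RPKM (vertical log axis) of every collagen gene in each of the 6 libraries, WT in blue and cKO in red, with 1 symbol per library. Type I chains lie between 6756 and 15448 RPKM in every library, type IV splits into the abundant Col4a1 and Col4a2 and 4 chains near or below 1 RPKM, and the libraries spread most for Col2a1, type IX, Col6a4 and Col6a6.

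Type I collagen is the heterotrimer of Col1a1 and Col1a2 chains on which bone mineral is laid down. Col1a1 (mm10 chromosome 11, 94936270 to 94951856) had 72765, 71852 and 99704 CPM in WT and 67856, 59175 and 44382 CPM in cKO. All cKO libraries were below all WT libraries, but WT 29 and cKO 37 lay far from their own groups. Means were 81440 ± 15823 against 57138 ± 11869 CPM (SD, n = 3 each), and the log2 difference of -0.51 ± 0.20 (95% interval -0.95 to -0.07) did not pass (edgeR adjusted p = 0.115). Col1a2 (chromosome 6, 4505697 to 4541543) had 59075, 53601 and 72181 CPM in WT and 58940, 50959 and 45403 CPM in cKO. These groups overlapped, with a log2 difference of -0.25 ± 0.17 (edgeR adjusted p = 0.359). Both chains were highest in WT 29 and lowest in cKO 37.

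The proportion of the 2 type I transcripts is free of library scaling. The RPKM ratio of Col1a2 to Col1a1 was 0.742, 0.681 and 0.661 in WT and 0.794, 0.787 and 0.935 in cKO, with no overlap. Group means were 0.695 ± 0.0418 and 0.838 ± 0.0835 (SD, n = 3), and the exact two-sided permutation p was 0.1, the smallest that 3 against 3 libraries allow. Col3a1, the chain of type III collagen found in young and distensible connective tissue, had 12891, 12443 and 12724 CPM in WT and 14402, 13261 and 11593 CPM in cKO (log2 0.04 ± 0.12, edgeR adjusted p = 0.848). Its groups overlapped, and at 1.24-fold between the highest and lowest library it was among the steadiest members. Its RPKM ratio to Col1a1 was 0.150, 0.146 and 0.108 in WT and 0.179, 0.189 and 0.221 in cKO, without overlap and here without a test. Both ratios share Col1a1 as denominator, which was itself lower in all cKO libraries, so they are not independent observations.

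**Figure D3:**
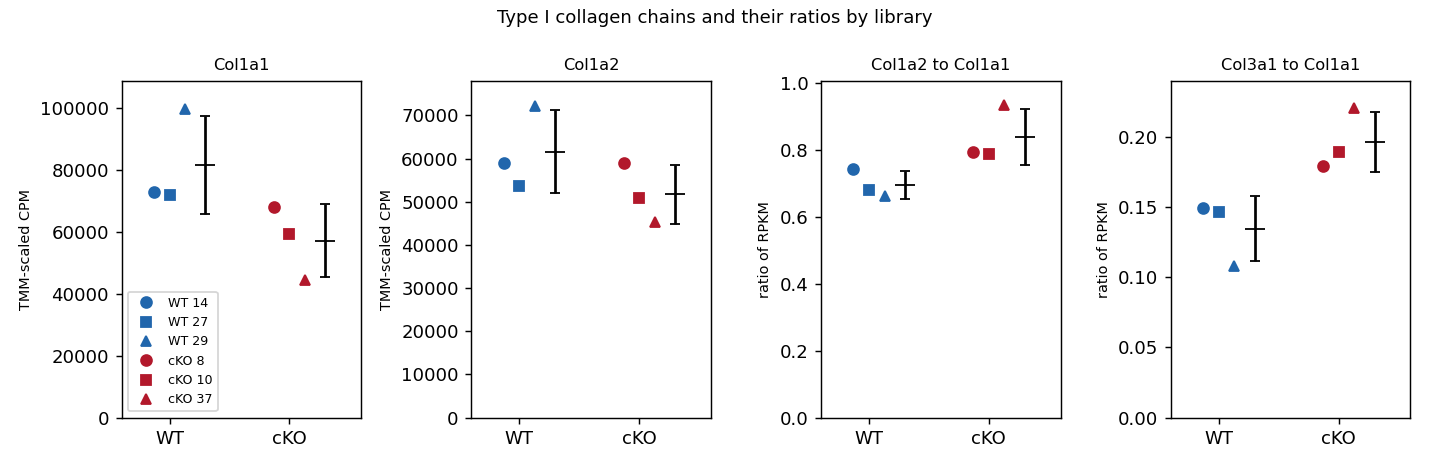
CPM of Col1a1 and Col1a2 (left panels) and RPKM ratios of Col1a2 and of Col3a1 to Col1a1 (right panels) in each library, with the group mean and SD (n = 3) beside the points. The groups overlap for Col1a2, whereas Col1a1 lies lower and both ratios lie higher in all 3 cKO libraries.

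Types V and XI are the minor fibrillar collagens that set the start and diameter of type I and type II fibrils. None of their 5 chains passed. Col5a1 had 6346, 5701 and 6384 CPM in WT and 5792, 5645 and 3921 CPM in cKO (log2 -0.26 ± 0.15, edgeR adjusted p = 0.272), with cKO 37 well below the rest. For Col5a2 the 6 values stayed within 1.16-fold of each other, the narrowest range of all 43 genes (log2 -0.07 ± 0.11, edgeR adjusted p = 0.725). Col5a3 was far less abundant per length, at 12.4 to 17.7 RPKM, and overlapped between groups (edgeR adjusted p = 0.611). Col24a1 and Col27a1, 2 further fibrillar chains, had 15.3 to 20.9 and 15.3 to 29.1 RPKM and log2 differences of 0.19 ± 0.13 and -0.12 ± 0.25 (edgeR adjusted p = 0.384 and 0.804).

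Type II collagen, the main fibril of cartilage, and type IX collagen, which coats that fibril, varied between libraries far more than between groups. Col2a1 had 1370, 5935 and 3547 CPM in WT and 4172, 4520 and 344 CPM in cKO, a 17.2-fold range. The lowest library of each group was WT 14 and cKO 37, and the other 4 libraries mixed. Its log2 difference was -0.26 ± 1.14 (95% interval -3.37 to 2.84, edgeR adjusted p = 0.906), an interval too wide to show whether the groups differ. Col9a1 followed with 237, 792 and 419 CPM in WT and 565, 695 and 167 CPM in cKO (edgeR adjusted p = 0.991). Col9a2 ran over an 8.64-fold and Col9a3 over a 6.62-fold range, with edgeR adjusted p-values of 0.942 and 0.890. In all 4 genes WT 14 and cKO 37 were the 2 lowest libraries. The same 2 libraries were lowest for both type XI chains, which join the cartilage fibril as well as the type I fibril, and for 3 of the other 37 collagen genes. Col11a1 had 1799, 2045 and 1946 CPM in WT and 2143, 2133 and 1226 CPM in cKO (edgeR adjusted p = 0.850), and Col11a2 1403, 2251 and 2401 CPM in WT and 1950, 1762 and 1068 CPM in cKO (edgeR adjusted p = 0.516).

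Chondrocyte markers were low in the same 2 libraries. For 7 of the 9 markers (Acan, Sox9, Comp, Matn1, Matn3, Hapln1, Lect1, Epyc and Ucma) WT 14 and cKO 37 were again the 2 lowest. Their summed level was 805, 2079 and 1278 CPM in WT and 1534, 1664 and 473 CPM in cKO, and none of the 9 passed or was at 0 in any library. Leaving out WT 14 and cKO 37, a choice made after these values were seen, gave a Col9a1 log2 difference of 0.05 and passed no type II or IX gene. Col11a2 passed in that comparison of 2 against 2 libraries (log2 -0.33, edgeR adjusted p = 0.0470). The part of cartilage content in these values was not tested.

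**Figure D4:**
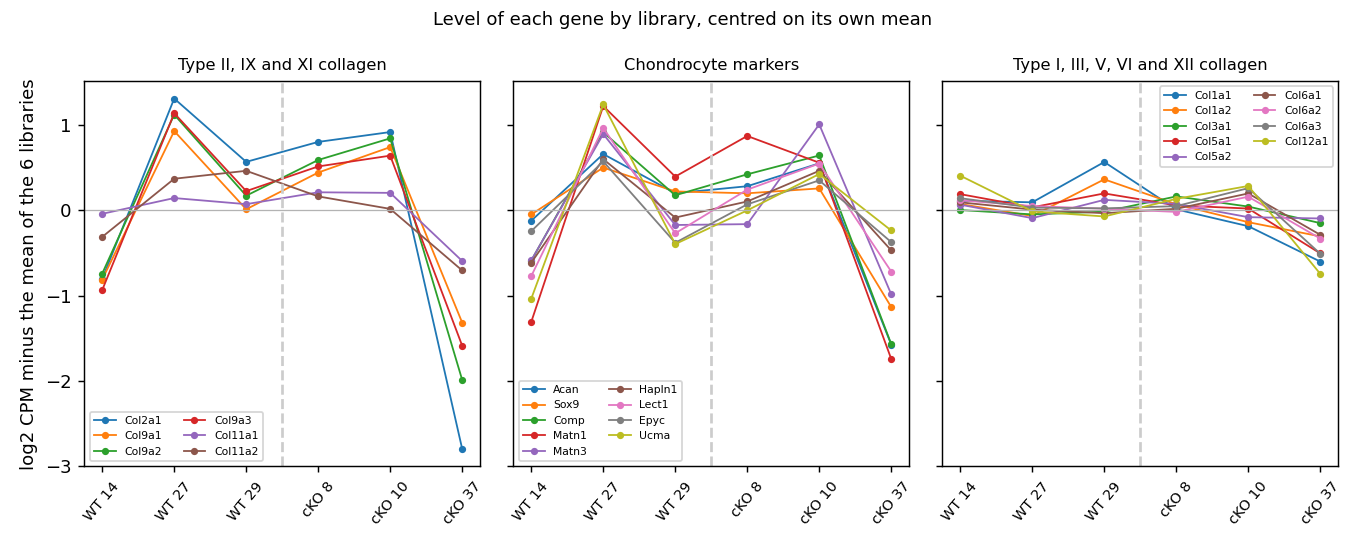
Log2 CPM of each gene minus its mean over the 6 libraries (vertical axis), by library (horizontal axis), for type II, IX and XI collagens, 9 chondrocyte markers, and type I, III, V, VI and XII collagens. Lines only join points of 1 gene. WT 14 and cKO 37 are the low libraries in the first 2 panels, while in the right panel the genes stay close to 0 except in cKO 37, for type I in WT 29, and for Col12a1 in WT 14, its highest library.

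Col10a1, the short-chain collagen of hypertrophic cartilage, was scarce in these flat bones, at 0.420 to 0.603 RPKM. It had 1.86, 1.72 and 1.81 CPM in WT and 2.00, 2.45 and 2.08 CPM in cKO, without overlap but not past the threshold (log2 0.28 ± 0.17, edgeR adjusted p = 0.308). Its whole span lies within that of Nt5dc1, whose highest count, 1016, exceeds the highest of Col10a1, 166. Whether counting used strand is not stated in the labels, so reads of these 2 genes may be mixed. The network collagens Col8a1 and Col8a2, known from vessel walls and the cornea, had mean levels of 72.0 and 105 RPKM and overlapped between groups (log2 0.05 ± 0.20 and -0.14 ± 0.12, edgeR adjusted p = 0.904 and 0.479).

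The 6 type IV chains build the network of basement membranes, and their genes lie as 3 head-to-head pairs. Col4a1 and Col4a2, the ubiquitous chains, are 2 bases apart on chromosome 8 by the deposited coordinates and were the abundant pair, at 186 and 128 RPKM. The RefSeq start of Col4a2 (11312805) instead falls within the span of Col4a1, which ends at 11312826. Col4a1 had 1676, 1644 and 1668 CPM in WT and 1524, 1916 and 1470 CPM in cKO (log2 -0.02 ± 0.11, edgeR adjusted p = 0.914), and Col4a2 followed it library by library (log2 0.01 ± 0.11, edgeR adjusted p = 0.972). Their RPKM ratio stayed between 0.673 and 0.712. Summed endothelial and mural markers, from cells that lie on such membranes, were at 1035 to 1310 CPM, and none of the 8 passed. Single markers were less even than the sum. Rgs5 was higher and Cspg4 lower in all cKO libraries (log2 0.24 ± 0.08 and -0.37 ± 0.17, edgeR adjusted p = 0.060 and 0.2135), and the others overlapped.

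Col4a4 and Col4a3, chains best known from the kidney glomerulus, lie 71 bases apart on chromosome 1. Col4a4 had 1.01, 0.888 and 1.63 CPM in WT and 1.67, 2.52 and 1.92 CPM in cKO. The groups did not overlap, though WT 29 reached 1.63 beside 1.67 in cKO 8, and the log2 difference of 0.78 ± 0.26 lay just outside the threshold (edgeR adjusted p = 0.0719). It passed in DESeq2 (adjusted p = 0.0381) and without WT 29 (edgeR adjusted p = 0.0429). Col4a3 overlapped between groups (log2 0.24 ± 0.26, edgeR adjusted p = 0.595).

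Col4a6 fell in cKO while its neighbour Col4a5 did not change past the threshold. These chains form the basement membranes of smooth muscle and some epithelia, and their genes lie head to head on chromosome X, 1342 bases apart. Col4a6 (chromosome X, 141165403 to 141474076) had 0.820, 1.17 and 1.89 CPM in WT and 0.567, 0.484 and 0.702 CPM in cKO, from counts of only 30 to 174. The 3 cKO libraries were close together and the WT libraries spread widely above them, with WT 29 highest. The log2 difference was -1.15 ± 0.33, or 2.21-fold lower (edgeR adjusted p = 0.0423). Col4a5 had 7.43, 8.24 and 8.37 CPM in WT and 8.38, 8.22 and 10.1 CPM in cKO (log2 0.15 ± 0.11, edgeR adjusted p = 0.411). The RPKM ratio of Col4a6 to Col4a5 was 0.108, 0.139 and 0.221 in WT and 0.0661, 0.0574 and 0.0681 in cKO, without overlap and without a test. Without WT 29 the Col4a6 difference was -0.76 (edgeR adjusted p = 0.183). The call was also lost without WT 27, cKO 8 or cKO 10 (edgeR adjusted p = 0.0739, 0.127 and 0.108), with the GC and length offset (0.0540) and with limma voom (0.0712).

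The 250 bases before each of these 2 starts are printed because they are the ends of the stretch that separates a gene that fell from a neighbour that did not. Both come from RefSeq on GRCm38.p6, read 5′ to 3′ on the strand of the gene. Capitals mark a CCAAT box (CCAAT) or a GC box (GGGCGG) on either strand, and none of the matches shown overlap.
Col4a6, chrX:141474077-141474326, minus strand: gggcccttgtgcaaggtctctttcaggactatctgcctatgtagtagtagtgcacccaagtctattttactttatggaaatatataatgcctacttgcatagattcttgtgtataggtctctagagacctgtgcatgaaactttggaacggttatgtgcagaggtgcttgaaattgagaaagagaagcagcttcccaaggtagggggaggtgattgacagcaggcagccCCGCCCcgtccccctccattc
Col4a5, chrX:141475169-141475418, plus strand: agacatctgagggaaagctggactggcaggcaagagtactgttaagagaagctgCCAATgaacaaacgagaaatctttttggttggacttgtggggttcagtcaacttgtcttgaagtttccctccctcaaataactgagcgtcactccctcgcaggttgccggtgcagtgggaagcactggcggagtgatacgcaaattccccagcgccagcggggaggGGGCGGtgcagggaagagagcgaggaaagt
The Col4a6 window holds 3 CpG and 1 GC box, and the Col4a5 window 10 CpG, 1 GC box and 1 CCAAT box. Over 32851 windows of that length, the median was 6 CpG (quartiles 2 and 16), 32.7% held a GC box, 33.8% a CCAAT box and 12.4% a TATA box (TATAAA). RefSeq windows were matched for 35 of the 43 collagen genes, with a median of 10 CpG (0 to 31), a GC box in 21, a CCAAT box in 12 and a TATA box in 5. A match of letters is a description of the window, not a binding site.

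Type VI collagen forms beaded filaments around cells from Col6a1, Col6a2 and 1 further chain, usually Col6a3. The 3 main chains were abundant (263 to 429 RPKM) and none passed: Col6a1 had a log2 difference of -0.03 ± 0.12, Col6a2 of -0.11 ± 0.12 and Col6a3 of -0.10 ± 0.17 (edgeR adjusted p = 0.882, 0.583 and 0.750). All 3 were highest in cKO 10 and lowest in cKO 37. The RPKM ratio of Col6a2 to Col6a1 was nonetheless narrow within each group, at 0.941, 0.953 and 0.960 in WT and 0.903, 0.902 and 0.898 in cKO, with a mean 0.947 times that of WT and no overlap. No test was made of this ratio, for which 3 against 3 libraries could not give an exact p below 0.1.

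The alternatives to Col6a3, the chains Col6a4, Col6a5 and Col6a6, lie in a row on chromosome 9 and had mean levels of 0.0226 to 0.243 RPKM. Col6a5 (chromosome 9, 105856070 to 105960643) fell, from 3.20, 4.44 and 3.70 CPM in WT to 2.07, 2.61 and 2.08 CPM in cKO. No cKO library reached the lowest WT library, and the log2 difference was -0.75 ± 0.17, or 1.68-fold lower (edgeR adjusted p = 0.0202). The call was lost without WT 27, WT 29 or cKO 8 (edgeR adjusted p = 0.0716, 0.0646 and 0.0842). Col6a4, on counts of 2 to 34, had a log2 difference of -1.24 ± 0.62, and Col6a6 one of -1.59 ± 0.93 (edgeR adjusted p = 0.216 and 0.338). Both overlapped between groups: cKO 37 lay among the WT libraries for Col6a4, and for Col6a6 WT 27 alone, at 3.15 CPM, stood far above the rest and without it the log2 difference was -0.40. Col6a4 passed once cKO 37 was left out (edgeR adjusted p = 0.0277). Col28a1, a related beaded-filament collagen, had 3.54 to 5.30 CPM and overlapping groups (edgeR adjusted p = 0.823). The window before the Col6a5 start, the member of this row that passed, holds 8 CpG and 1 GC box, in capitals.
Col6a5, chr9:105960644-105960893, minus strand: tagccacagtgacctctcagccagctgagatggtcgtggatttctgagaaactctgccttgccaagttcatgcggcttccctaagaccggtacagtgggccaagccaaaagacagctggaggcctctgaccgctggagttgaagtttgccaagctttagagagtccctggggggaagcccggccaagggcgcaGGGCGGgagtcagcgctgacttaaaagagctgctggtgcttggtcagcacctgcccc

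Among the FACIT collagens outside type IX, Col14a1 fell. Type XIV collagen binds the surface of type I fibrils in skin, tendon and other dense connective tissue. Col14a1 (chromosome 15, 55307750 to 55520803) had 348, 394 and 323 CPM in WT and 297, 223 and 228 CPM in cKO, with cKO 8 nearest to WT. Means were 355 ± 36.0 and 250 ± 41.6 CPM (SD, n = 3), a 1.42-fold difference (log2 -0.51 ± 0.12, edgeR adjusted p = 0.0279). It was the most abundant collagen that passed, at 34.9 RPKM. Omitting any 1 of WT 14, WT 27, cKO 10 and cKO 37 ended the call (edgeR adjusted p = 0.0625, 0.0717, 0.0705 and 0.0919), and without WT 14 and cKO 37 together (0.181). Tendon markers (Tnmd, Scx and Mkx) summed to 144, 103 and 102 CPM in WT and 123, 94.7 and 108 CPM in cKO, and none passed. The sum is mostly Tnmd. The log2 differences of Tnmd, Scx and Mkx were -0.11 ± 0.16, -0.49 ± 0.22 and 0.19 ± 0.20 (edgeR adjusted p = 0.709, 0.198 and 0.604). Their part in the Col14a1 value was not tested.

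Col12a1, which decorates the same fibrils and is made by osteoblasts and periosteal cells, had 6235, 4666 and 4476 CPM in WT and 5165, 5735 and 2808 CPM in cKO (log2 -0.17 ± 0.28, edgeR adjusted p = 0.744). Its spread within groups was larger than the difference, and WT 14, low in cartilage genes, was its highest library. Col16a1 (246 RPKM) and Col22a1 (38.6 RPKM), a collagen of tissue junctions, had log2 differences of -0.12 ± 0.13 and -0.16 ± 0.20 (edgeR adjusted p = 0.575 and 0.651). Col20a1 was near 1.48 RPKM (log2 -0.10 ± 0.11, edgeR adjusted p = 0.578), and Col19a1, with 6 to 22 counts per library, gave too few reads for a narrow estimate (95% interval -0.99 to 1.32).

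Col23a1 was the collagen that rose. Type XXIII collagen is a transmembrane collagen whose ectodomain can be shed from the cell surface. Col23a1 (chromosome 11, 51289920 to 51583925) had 10.6, 11.5 and 12.9 CPM in WT and 16.4, 13.9 and 18.5 CPM in cKO. Every cKO library was above every WT library, with a gap of about 1 CPM between WT 29 and cKO 10. Means were 11.6 ± 1.16 and 16.3 ± 2.32 CPM (SD, n = 3), a 1.40-fold difference (log2 0.48 ± 0.11, edgeR adjusted p = 0.0223). Omission of WT 14, WT 27, cKO 8 or cKO 37 moved its p above the threshold (edgeR adjusted p = 0.0733, 0.0655, 0.0819 and 0.0510). Leaving out WT 14 and cKO 37 together gave a log2 difference of 0.31 (edgeR adjusted p = 0.107). The window before its start is rich in CpG (18, against the median of 6) and holds 1 GC box, written in capitals as its reverse complement.
Col23a1, chr11:51289670-51289919, plus strand: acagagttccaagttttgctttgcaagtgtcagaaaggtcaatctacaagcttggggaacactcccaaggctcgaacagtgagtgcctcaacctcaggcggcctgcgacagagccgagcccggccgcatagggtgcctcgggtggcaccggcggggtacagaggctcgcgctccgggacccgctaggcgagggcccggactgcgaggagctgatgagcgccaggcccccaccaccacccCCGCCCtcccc

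The other transmembrane collagens did not pass. Col25a1 had 21.6, 23.7 and 21.4 CPM in WT and 23.3, 26.3 and 27.6 CPM in cKO, where only cKO 8 overlapped WT (log2 0.21 ± 0.08, edgeR adjusted p = 0.106). Col13a1 had 88.7, 88.2 and 101 CPM in WT and 86.9, 86.5 and 70.7 CPM in cKO, lower without overlap, though by less than 2 CPM between the nearest libraries (log2 -0.19 ± 0.09, edgeR adjusted p = 0.191). Col17a1, a hemidesmosome protein of epithelia, was at 1.27 to 1.80 CPM (edgeR adjusted p = 0.859), where the keratinocyte markers Krt5, Krt14, Krt10 and Krt15 together reached 2.45 to 4.58 CPM.

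Col7a1, the anchoring fibril collagen that ties epidermis to dermis, had 51.2, 35.6 and 38.9 CPM in WT and 52.2, 59.9 and 59.7 CPM in cKO. The groups did not overlap, but WT 14 came within about 1 CPM of cKO 8, and the gene lay just outside the threshold (log2 0.45 ± 0.13, edgeR adjusted p = 0.0679). It passed without WT 14 (log2 0.62, edgeR adjusted p = 0.00737) and in DESeq2 (adjusted p = 0.00384). Of the 4 keratinocyte markers, Krt10 had 2.29 to 4.29 CPM in the same libraries and was at 0 in none. Krt5, Krt14 and Krt15 had at most 0.286 CPM and were at 0 in 1, 2 and 3 libraries. Their part in the Col7a1 value was not tested. The multiplexins Col15a1 and Col18a1, basement membrane zone collagens whose ends can be cleaved to release restin and endostatin, had 188 to 275 and 114 to 157 CPM. Both overlapped between groups (log2 0.04 ± 0.14 and 0.16 ± 0.09, edgeR adjusted p = 0.886 and 0.253).

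**Figure D5:**
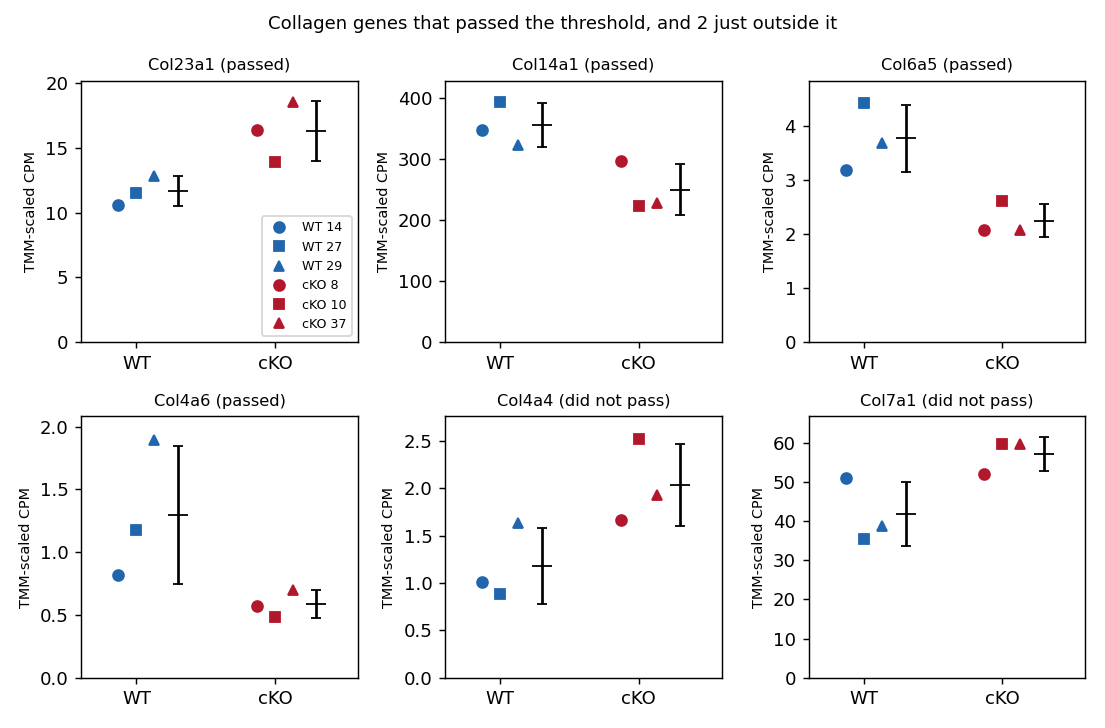
CPM by library of the 4 collagen genes that passed the threshold and of Col4a4 and Col7a1 just outside it, with the group mean and SD (n = 3) beside the points; each vertical axis starts at 0. The groups separate in all 6 panels, by a wide gap for Col6a5 and by narrow ones for Col4a4 and Col7a1.

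Of 36 genes that modify, fold, secrete and crosslink collagen chains, 8 fell in cKO, none rose and 28 did not pass. Among all tested genes 6.45% fell, but the list was chosen with earlier results of these data known. Setting it beside that share is therefore no test of the list. The median log2 difference of the 36 genes was -0.15, and 28 of the 36 values were negative. P4ha1 and P4ha2, catalytic subunits of the prolyl 4-hydroxylase that stabilises the triple helix, fell. P4ha1 went from 254, 220 and 266 CPM in WT to 181, 165 and 170 CPM in cKO (log2 -0.52 ± 0.08, edgeR adjusted p = 0.00381), and passed with any 1 library left out. P4ha2 went from 146, 134 and 166 CPM to 114, 116 and 97.0 CPM (log2 -0.45 ± 0.09, edgeR adjusted p = 0.0134). Plod3, a lysyl hydroxylase that also adds sugars to collagen, fell by 0.33 ± 0.06 on the log2 scale, and Sec24d, a coat protein of the vesicles that carry procollagen, by 0.34 ± 0.07 (edgeR adjusted p = 0.0102 and 0.0132). Each of these 3 calls was lost without 1 library, P4ha2 and Sec24d without WT 29 (edgeR adjusted p = 0.0511 and 0.0621) and Plod3 without cKO 8 (0.0515).

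The other 4 that fell were the collagen chaperone Serpinh1, the prolyl 3-hydroxylation subunit Crtap, Leprel4 (now P3h4) and the transcription factor Creb3l1. They changed by 0.24 to 0.46 on the log2 scale downward, with edgeR adjusted p-values of 0.0332 (Serpinh1 and Leprel4), 0.0427 (Crtap) and 0.0354 (Creb3l1). Of 6 fits that each left out 1 library, Crtap passed in none, Serpinh1 and Leprel4 in 1 and Creb3l1 in 2. All 4 also lost their call with the GC and length offset (edgeR adjusted p from 0.0535 for Serpinh1 to 0.156 for Leprel4), while 4 others of the list (Fkbp14, Lox, Mia3 and Sec23a) passed lower there, so that the count stayed at 8. Without WT 29 the count of the list fell to 2. The crosslinking enzyme Lox (log2 -0.27 ± 0.10, edgeR adjusted p = 0.110) and the matricellular protein Sparc (-0.07 ± 0.12, 0.767) did not pass in the main comparison. Lox passed with that offset (edgeR adjusted p = 0.0354), without WT 27 (0.0426) and in DESeq2 (0.0345). Among osteoblast markers, Sp7 was lower (log2 -0.37 ± 0.09, edgeR adjusted p = 0.0211) and the other 7 did not pass, including Runx2 (-0.11 ± 0.07, 0.348) and Ibsp (0.34 ± 0.12, 0.0745, and 0.0114 in DESeq2). Sp7 did not pass when WT 29 or any 1 cKO library was omitted (edgeR adjusted p of 0.0518 to 0.0789).

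None of the 10 collagen receptors and uptake proteins passed. The smallest p belonged to Mrc2, the endocytic collagen receptor (log2 -0.18 ± 0.08, edgeR adjusted p = 0.168), and the main integrin and discoidin receptors Itgb1 and Ddr2 differed by -0.02 ± 0.08 and 0.04 ± 0.07. Of 12 proteases that cut collagen and their inhibitors, 2 rose, none fell and 10 did not pass, where 5.96% of all tested genes rose. This list, too, was chosen with earlier results known. Mmp13, a collagenase of bone and cartilage, had 1028, 939 and 856 CPM in WT and 1075, 1734 and 1578 CPM in cKO (log2 0.64 ± 0.17, edgeR adjusted p = 0.0423). WT 14 and cKO 8 were nearly level, and the call held in 1 of 6 fits with a library left out, that without cKO 8 (edgeR adjusted p = 0.0119). Mmp1a, an interstitial collagenase at trace level, had 0.109, 0.172 and 0.261 CPM in WT and 0.634, 0.774 and 0.468 CPM in cKO (log2 1.75 ± 0.40, edgeR adjusted p = 0.0193), and kept its call only without WT 29 or cKO 37. The membrane protease Mmp15 and the osteoclast protease Ctsk had log2 differences of -0.32 ± 0.10 and -0.25 ± 0.11 (edgeR adjusted p = 0.0593 and 0.162). Osteoclast markers (Ctsk, Acp5, Ocstamp and Calcr) summed to 1963, 2427 and 1824 CPM in WT and 1510, 1728 and 1678 CPM in cKO without overlap, and 1 of the 4, Acp5, fell (log2 -0.56 ± 0.12, edgeR adjusted p = 0.0172). The sum is mostly Ctsk, which by itself overlapped between groups. Calcr overlapped as well, whereas Acp5 and Ocstamp were lower in all cKO libraries. The Acp5 call was lost without cKO 8 or cKO 37 (edgeR adjusted p = 0.0743 and 0.0543). The part of osteoclast content in the protease values was not tested.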

How the data were processed

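Total RNA of mouse calvaria was sequenced in 6 libraries, 3 per group. Per the submitters' processing notes, the authors used bcl2fastq, TopHat2 2.0.6, HTSeq and mm10; the sources used here do not give annotation, strand or options. The deposited counts are read counts per gene, all even (0 odd), and the RPKM values deposited by the authors were used for comparisons between genes and for ratios. Gene lengths deposited by the authors entered only the GC and length offset.

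Counts were analysed with edgeR 4.0.16 in R 4.3.3: filterByExpr with a minimum count of 10 (16089 of 23358 entries, 69 with a shared identifier kept apart by position), TMM scaling, and a robust quasi-likelihood F test with Benjamini-Hochberg adjustment over all 16089 genes. Standard errors were derived from the log2 value and its F statistic, as an approximation, and the 95% intervals were built from them. The biological coefficient of variation was 11.5%. All 43 collagen genes passed the filter. Alternatives were RLE and upper-quartile scaling, scaling without collagens and Rn45s, other count filters, each library left out, DESeq2 1.42.0, limma 3.58.1 voom, an adjusted p of 0.1, a test against a fold change of 1.2, counts divided by 2, and an offset for length and GC content (GC known for 98.5% of tested genes). The steps were tested on simulated data that gave every gene the same biological coefficient of variation. The wider spread of genes such as Col2a1 was not simulated.

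Members and lists were chosen with earlier results of these data known. The rule named the main collagens of each class, every collagen that passed, the 5 largest changes at a mean CPM of at least 1 and up to 4 genes of each pathway list by p; all others were chosen after their values were seen. Skeletal muscle and Schwann cell markers (summed 3.26 to 4.57 and 15.7 to 34.4 CPM) had no gene past the threshold. Col26a1, listed under an older symbol, was outside the rule. Promoter windows are from RefSeq (GRCm38.p6).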

Additional observations from a re-analysis of the deposited data

How the results depend on the processing

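No paired analysis was possible because the groups share no replicate numbers in the labels. The count of collagen genes that rose (1) ranged from 0 to 2 with 1 library left out and was 3 in DESeq2, 3 at an adjusted p of 0.1 and 0 when tested against a 1.2-fold change. The count that fell (3) ranged from 0 to 3 with 1 library left out and was 0 in the fold-change test. Genes higher genome-wide (959) ranged from 291 to 932 with 1 library left out, with 1593 at an adjusted p of 0.1 and 62 in the fold-change test; genes lower (1038) ranged from 295 to 1053, with 1684 and 50. With 1 library left out, biosynthesis genes that rose ranged from 0 to 1, and those that fell (8) from 2 to 7. Those that fell were 11 in DESeq2, 11 at an adjusted p of 0.1 and 0 in the fold-change test. They were 5 without WT 14 and cKO 37, an alternative added after the data were seen. The ratio of Col1a2 to Col1a1 stayed higher in cKO with raw counts and with each library left out, but neither check could reverse it. Raw counts change this ratio only by the fixed gene lengths, and groups without overlap keep their order when 1 library is dropped.

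Of the 43 collagen genes, 19 kept their direction throughout, the 4 that passed among them. The groups of those 4 did not overlap, so leaving out 1 library could hardly turn them. The adjusted p of 0.1 and the fold-change test reuse the main log2 values and cannot turn any gene. The 24 others, none of which had passed, turned under at least 1 alternative. With 1 library left out, their log2 values ranged from -0.20 to 0.14 for Col11a1, -0.37 to 0.085 for Col12a1, -0.15 to 0.14 for Col15a1, -0.21 to 0.012 for Col16a1, -0.21 to 0.048 for Col17a1, -0.18 to 0.69 for Col19a1, -0.27 to 0.064 for Col22a1, -0.24 to 0.091 for Col27a1, -0.15 to 0.17 for Col28a1, -0.69 to 0.29 for Col2a1, -0.030 to 0.12 for Col3a1, -0.16 to 0.045 for Col4a1, -0.13 to 0.096 for Col4a2, -0.13 to 0.43 for Col4a3, -0.013 to 0.15 for Col5a3, -0.16 to 0.083 for Col6a1, -0.24 to 0.0065 for Col6a2, -0.28 to 0.088 for Col6a3, -0.15 to 0.25 for Col8a1, -0.24 to 0.021 for Col8a2, -0.41 to 0.53 for Col9a1, -0.57 to 0.45 for Col9a2 and -0.61 to 0.38 for Col9a3. Without WT 14 and cKO 37 the values were 0.096 for Col11a1, 0.25 for Col12a1, 0.0096 for Col16a1, 0.070 for Col17a1, -0.071 for Col19a1, -0.081 for Col28a1, 0.051 for Col4a1, -0.0057 for Col4a5, 0.12 for Col6a1, 0.035 for Col6a2, 0.13 for Col6a3, 0.057 for Col8a2 and 0.053 for Col9a1. Upper-quartile scaling gave 0.0042 for Col4a1 and 0.0044 for Col9a1, the GC and length offset 0.044 for Col4a1, 0.032 for Col6a1 and 0.0035 for Col9a2, and limma voom -0.0013 for Col4a2. Of the receptors, Itgb1 ranged from -0.075 to 0.023 and Ddr2 from -0.0039 to 0.067 with 1 library left out; Itgb1 was 0.0069 with upper-quartile scaling and 0.011 without WT 14 and cKO 37, and Ddr2 -0.037 with the GC and length offset. The causes were not tested. The lowest counts were those of Col6a4 (2 to 34 per library) and Col19a1 (6 to 22).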

Other observations

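Tmem38b, which encodes the endoplasmic reticulum potassium channel TRIC-B needed for collagen modification in bone, was singled out after its values were seen. It had 20.3, 16.6 and 20.2 CPM in WT 14, WT 27 and WT 29 and 72.0, 45.0 and 20.6 CPM in cKO 8, cKO 10 and cKO 37. Of the 3 cKO libraries, 2 stood far above WT and cKO 37 was level with it. The log2 difference of 1.26 ± 0.51 did not pass (edgeR adjusted p = 0.207), and without cKO 37 it was 1.61 (edgeR adjusted p = 0.0273).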
